A study of Mus musculus with 11 samples.

Results

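The genes described here are 43 mouse genes of striated muscle that build the sarcomere or couple excitation to contraction. They were chosen by symbol from a written list, drawn up with earlier results of these data known, so counts of members are descriptions. All 43 are among the 21677 genes of the exon counts and are also listed in the intron counts. They were followed in C2C12, an established mouse myoblast line. Every group carries an adenovirus, given at a multiplicity of infection of 100, in which a U6 promoter drives a short hairpin RNA, so the controls carry virus and hairpin too. One hairpin targets Zc3h10, which codes for a zinc finger protein, and is called shZc3h10. The control hairpin has a scrambled sequence and is called scramble. All cells were confluent and received 300 µM 4-thiouridine (4sU) for 30 min. This uridine analogue enters RNA made during the pulse, and RNA that carries it was pulled down and is called 4sU RNA, while total RNA was kept from the same harvests. Of 11 libraries, each counted over exons and over introns, 3 of 4sU RNA are labelled shZc3h10 and 2 are labelled scramble, and total RNA has 3 libraries with each of these labels. The series addresses the part of Zc3h10 in mitochondria, iron and cardiolipin. The labels do not state that replicates are separate cultures. The p-values therefore reflect the spread among the libraries at hand, which could be technical.

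Before the results, a disagreement about the total RNA libraries has to be stated. For each of these 6 libraries the name of the deposited file gives the opposite hairpin to the title and genotype label. The targeted gene itself also went against the labels there. Zc3h10 exons stood at 69.7, 114 and 75.1 CPM (a count relative to the normalised size of its library) in total RNA labelled shZc3h10, and at 43.7, 52.8 and 29.7 CPM in total RNA labelled scramble. In 4sU RNA, Zc3h10 exons were at 13.3, 18.8 and 12.8 CPM with shZc3h10 and at 21.4 and 20.1 CPM with scramble. The log2 difference was −0.48 (SE 0.19, edgeR adjusted p = 0.129) in 4sU exons and 1.04 (SE 0.30, edgeR adjusted p = 0.0519) in total exons. Libraries were grouped by label throughout, and directions in total RNA are those of the libraries labelled with a hairpin. If the hairpins of total RNA were exchanged, every fold change within total RNA would keep its size and turn its sign.

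In striated muscle, myosin thick filaments slide along actin thin filaments between Z discs, while titin runs from the Z disc to the M band and keeps the filaments in register. When a nerve impulse excites a skeletal muscle fibre, the L-type calcium channel of the membrane acts as the voltage sensor for the ryanodine receptor of the sarcoplasmic reticulum. Calcium released there binds troponin on the thin filament. C2C12 myoblasts switch many of these genes on as they leave the cell cycle and fuse, and MyoD family factors, which bind E-boxes, and MEF2 factors are known activators of such genes. Introns are removed soon after transcription, so intron counts mostly stand for RNA made recently.

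Promoter sequence is shown for the members whose new RNA differed most between hairpins. RefSeq promoter entries (build GRCm38.p6) matched 35 of the 43 members. There is no entry for Neb, Tnnt3, Tnni2, Myom2, Actn3, Xirp1, Trdn and Klhl30, so the 5 genes shown are those with an entry and the largest fall in 4sU exons among the 13 members that fell in both exons and introns of 4sU RNA. They were chosen after their values were seen. Each line gives the 250 bases before a transcription start, 5′ to 3′ on the gene's strand. Capitals mark E-boxes (CANNTG) and the MEF2 site, the A/T-rich sequence bound by MEF2 factors, and both motifs are their own reverse complement.
Xirp2, chr2:67445752-67446001, plus strand: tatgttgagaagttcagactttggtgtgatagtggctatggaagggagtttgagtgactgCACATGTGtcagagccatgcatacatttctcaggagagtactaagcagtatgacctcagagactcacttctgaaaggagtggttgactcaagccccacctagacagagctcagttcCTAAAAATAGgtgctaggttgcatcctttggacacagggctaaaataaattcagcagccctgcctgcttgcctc
Synpo2l, chr14:20668355-20668604, minus strand: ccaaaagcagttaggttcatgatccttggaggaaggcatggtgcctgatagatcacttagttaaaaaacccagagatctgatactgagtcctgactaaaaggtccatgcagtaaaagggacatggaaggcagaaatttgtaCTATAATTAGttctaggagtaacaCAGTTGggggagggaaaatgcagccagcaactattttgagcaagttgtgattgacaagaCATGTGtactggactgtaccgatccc
Synpo2l, other start, chr14:20664575-20664824, minus strand: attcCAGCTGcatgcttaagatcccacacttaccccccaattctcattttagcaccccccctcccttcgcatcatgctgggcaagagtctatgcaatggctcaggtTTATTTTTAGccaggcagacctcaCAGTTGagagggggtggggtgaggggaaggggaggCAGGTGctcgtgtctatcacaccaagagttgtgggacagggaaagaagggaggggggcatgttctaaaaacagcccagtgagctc
Tmem182, chr1:40805351-40805600, plus strand: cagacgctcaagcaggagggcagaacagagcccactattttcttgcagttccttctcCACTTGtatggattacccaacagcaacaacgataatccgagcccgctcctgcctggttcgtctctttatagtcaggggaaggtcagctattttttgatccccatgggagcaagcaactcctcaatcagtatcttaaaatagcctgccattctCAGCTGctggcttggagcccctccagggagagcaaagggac
Ttn, chr2:76982548-76982797, minus strand: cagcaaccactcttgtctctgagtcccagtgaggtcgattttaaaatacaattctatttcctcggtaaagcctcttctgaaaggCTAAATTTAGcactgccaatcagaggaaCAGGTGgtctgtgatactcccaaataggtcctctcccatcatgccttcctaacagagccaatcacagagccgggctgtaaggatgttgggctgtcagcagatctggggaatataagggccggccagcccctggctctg
Casq2, chr3:102086165-102086414, plus strand: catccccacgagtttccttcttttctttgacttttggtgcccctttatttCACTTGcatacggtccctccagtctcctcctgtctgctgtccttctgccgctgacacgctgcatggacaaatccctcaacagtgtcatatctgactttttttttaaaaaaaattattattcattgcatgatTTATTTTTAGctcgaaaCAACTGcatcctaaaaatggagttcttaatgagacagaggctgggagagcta

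All 6 windows hold at least 1 E-box, and those of Xirp2, Synpo2l, Ttn and Casq2 hold 1 MEF2 site each. In the Xirp2 window the 2 E-boxes overlap each other, and in no window does an E-box overlap the MEF2 site. Over all RefSeq starts, 66.2% of 32851 windows of this length hold CANNTG, against 33 of 41 member windows (80.5%). The E-box CAGCTG, a subset of CANNTG, is in 13% of all windows and in 16 of 41 member windows (39%). The MEF2 site is in 2.92% of all windows, in 9 of 41 member windows (22%) and in 5 of the 12 windows of members that fell in 4sU exons (41.7%). The CArG box, the site of serum response factor, is in 1.47% of all windows, in 6 of 41 member windows (14.6%) and in none of those 12. These are letter matches without a test, and members such as Synpo2l count once per start.

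In newly made RNA, more of these genes fell than rose with shZc3h10. Of the 43 members, 40 passed the filter on low counts in 4sU exons, and 14 of them were lower and 3 higher at an edgeR adjusted p below 0.05, adjusted over all genes tested. Among all 13603 genes tested, 4.65% were lower and 5.7% higher. The median log2 fold change was −0.38 over the members and −0.00080 over all genes tested. In introns of the same 4sU libraries, 15 of 39 tested members were lower and 2 higher, against 6.59% and 8.96% of all genes, and the median was −0.39 against 0.0084. Exons and introns come from the same libraries, so both counts are descriptions of one set of cells. The 13 members lower in both were Ttn, Xirp1, Xirp2, Synpo2l, Myom2, Actn3, Des, Tnnt2, Ryr1, Casq2, Atp2a1, Klhl30 and Tmem182. The groups did not overlap for 25 members in 4sU exons, with shZc3h10 below scramble for 18 and above for 7, where 18.8% and 18.4% of all genes lay below and above without overlap. In these bulk samples, fewer cells of a type and less RNA per cell cannot be told apart.

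Of the 14 members that fell in 4sU exons, 7 belong to titin, the M band and the Z disc, the parts that hold the filaments in place. Of 11 such genes tested, 7 were lower and 1 higher, with a median of −0.92. Titin, Ttn, was at 954, 756 and 707 CPM over exons with shZc3h10 and at 1671 and 1722 CPM with scramble. Its introns were at 322, 289 and 272 CPM against 699 and 674 CPM. Both groups lay clear of each other in exons and introns, on 8035 to 33129 exon counts per library. Ttn fell by 1.07 (SE 0.14, edgeR adjusted p = 2.83e-05) in exons and by 1.22 (SE 0.092, edgeR adjusted p = 3.94e-06) in introns.

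Xirp1 and Xirp2 code for Xin-repeat proteins, which bind actin at the ends and at damaged stretches of myofibrils. Xirp1 exons were at 30.1, 33.3 and 34.8 CPM with shZc3h10 and at 88.9 and 100 CPM with scramble, and its introns at 2.77, 1.41 and 2.79 CPM against 6.44 and 8.08 CPM. Xirp2 exons were at 0.866, 0.658 and 2.55 CPM against 6.25 and 6.75 CPM, on as few as 7 counts, while its introns were at 11.4, 13.6 and 8.71 CPM against 37.8 and 48 CPM. The long introns of Xirp2 thus gave the better measured value. Xirp1 fell by 1.53 (SE 0.15) in exons and by 1.63 (SE 0.31) in introns, and Xirp2 by 2.20 (SE 0.39) and 1.94 (SE 0.17), with edgeR adjusted p from 4.79e-07 for Xirp1 exons to 0.00298 for Xirp1 introns. Without shZc3h10 library 3, the highest of its group, Xirp2 fell by 3.06 in exons. Synpo2l, an actin-binding protein of the Z disc, had exons at 13.2, 12.5 and 12 CPM with shZc3h10 and at 35.2 and 43.7 CPM with scramble. Its exons fell by 1.65 (SE 0.17, edgeR adjusted p = 1.31e-06). Its introns, at 2.47, 2.27 and 4.02 CPM against 6.75 and 6.13 CPM, fell by 1.14 (SE 0.29, edgeR adjusted p = 0.0178). That intron call was lost without shZc3h10 library 1 (edgeR adjusted p = 0.0818) and without scramble library 1 (0.14).

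The myomesins, which crosslink thick filaments at the M band, moved in opposite directions. Myom2 exons were at 65, 60 and 58.6 CPM with shZc3h10 and at 112 and 120 CPM with scramble, and its introns at 29.1, 23.4 and 29.2 CPM against 70 and 68.9 CPM. Myom1 exons were at 8.08, 8.56 and 9.1 CPM against 2.27 and 4.26 CPM, and its introns at 30.7, 31.3 and 33.4 CPM against 12.6 and 12.4 CPM. No library of one hairpin reached the range of the other in either gene. Myom2 fell by 0.92 (SE 0.14, edgeR adjusted p = 0.000126) in exons and by 1.35 (SE 0.12, edgeR adjusted p = 1.08e-05) in introns. Myom1 rose by 1.43 (SE 0.28, edgeR adjusted p = 0.00167) in exons and by 1.35 (SE 0.12, edgeR adjusted p = 1.52e-05) in introns. Myom3, the third of the family, was at 3.17 to 4.13 CPM against 3.93 and 4.99 CPM in exons, with overlapping groups, and did not pass the test. The exon call of Myom1 was lost without scramble library 1 (edgeR adjusted p = 0.0728).

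Desmin, Des, the intermediate filament that ties neighbouring Z discs together, had exons at 138, 138 and 106 CPM with shZc3h10 and at 208 and 196 CPM with scramble. Actn3, the fast-fibre alpha-actinin that anchors thin filaments in the Z disc, had exons at 7.87, 15.1 and 12.6 CPM against 24.2 and 20.5 CPM. Their introns showed the same order, with Des at 19.1, 25 and 22.2 CPM against 38.9 and 34.5 CPM and Actn3 at 4.91, 9.26 and 6.57 CPM against 17.6 and 13.7 CPM. Every shZc3h10 library was below every scramble library. Des fell by 0.66 (SE 0.15, edgeR adjusted p = 0.00445) in exons and by 0.73 (SE 0.13, edgeR adjusted p = 0.00239) in introns. Actn3 fell by 0.93 (SE 0.22, edgeR adjusted p = 0.00748) in exons and by 1.19 (SE 0.23, edgeR adjusted p = 0.00408) in introns. Without scramble library 1, the edgeR adjusted p of the exons became 0.0512 for Des and 0.0928 for Actn3, and 0.0722 for the introns of Actn3. Not all Z disc genes moved this way. Ldb3, a PDZ and LIM protein of the Z disc, rose by 0.27 (SE 0.082, edgeR adjusted p = 0.0471) in introns, from 630 and 621 CPM with scramble to 743, 770 and 743 CPM with shZc3h10. The Ldb3 intron call was lost without any of shZc3h10 libraries 2 and 3 and scramble libraries 1 and 2 (edgeR adjusted p = 0.0531, 0.128, 0.288 and 0.317). Ldb3 exons, at 309, 313 and 342 CPM against 238 and 273 CPM, did not pass the test. Actn2 did not pass either, and Csrp3 had only 2 to 9 exon counts per library and was not tested in 4sU exons.

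**Figure D1:**
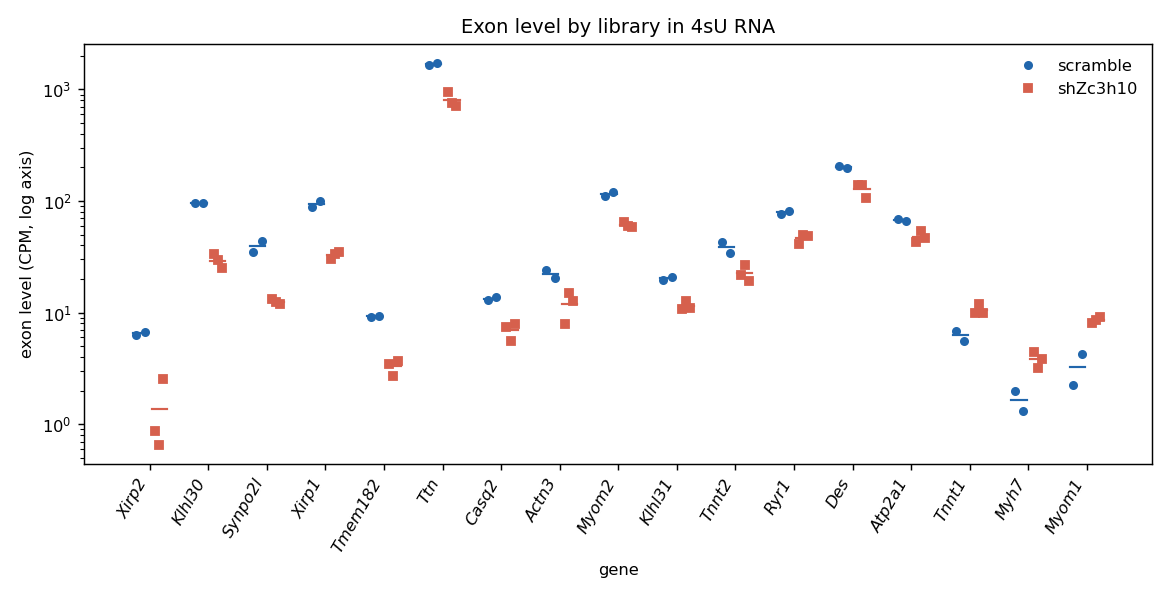
Exon level in CPM (log axis) of the 17 members called in 4sU exons, in each 4sU library, with a line at the group mean: circles for 2 scramble libraries, squares for 3 shZc3h10 libraries, in order of the fold change. The squares sit below the circles from Xirp2 to Atp2a1 and above them for Tnnt1, Myh7 and Myom1.

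Among genes of the thin filament, 1 of 10 tested was lower in 4sU exons and 1 was higher, and the median was −0.33. Tnnt2, the troponin T of heart and embryonic muscle, had exons at 21.6, 26.9 and 19.4 CPM with shZc3h10 and at 43.1 and 34.1 CPM with scramble. Tnnt1, the slow-fibre troponin T, had exons at 10, 11.8 and 9.92 CPM against 6.91 and 5.58 CPM. The groups stood apart in both, on opposite sides. Over introns, Tnnt2 was at 30, 35.4 and 26.2 CPM against 48.6 and 44.4 CPM, and Tnnt1 overlapped, at 7.83, 9.41 and 8.07 CPM against 7.12 and 8.32 CPM. Tnnt2 fell by 0.78 (SE 0.18, edgeR adjusted p = 0.00558) in exons and by 0.61 (SE 0.13, edgeR adjusted p = 0.00746) in introns, and both calls were lost without scramble library 1 (0.139 and 0.0914). Tnnt1 rose by 0.75 (SE 0.22, edgeR adjusted p = 0.0329) in exons, a call lost when any 1 of the 5 libraries was left out (edgeR adjusted p from 0.0567 to 0.206) and under DESeq2 (0.0698), while its introns differed by 0.13 (SE 0.19) and did not pass. Nebulin, Neb, a ruler of thin filament length, fell by 0.56 (SE 0.10, edgeR adjusted p = 0.00213) in introns, with 40, 39.5 and 39.4 CPM against 60.6 and 56.1 CPM, but its exons, at 88.3, 67.3 and 72.9 CPM against 82.7 and 106 CPM, overlapped. The skeletal actin gene Acta1 was at 21.1, 27.4 and 23.7 CPM against 38 and 28.4 CPM in exons and missed the threshold, at −0.47 (SE 0.18, edgeR adjusted p = 0.0999). Without shZc3h10 library 2 its edgeR adjusted p was 0.0436. The cardiac actin gene Actc1, with exons at 110, 122 and 153 CPM against 106 and 93.5 CPM, stood at 0.37 (SE 0.16, edgeR adjusted p = 0.161). Actc1 is listed at 0 over introns in every library. The other troponins did not pass, with the fast troponin T Tnnt3 at −0.52 (SE 0.28), the fast troponin C Tnnc2 at −0.98 (SE 0.44), Tnnc1 at −0.35 (SE 0.31), Tnni1 at 0.03 (SE 0.21) and Tnni2 at 0.34 (SE 0.53) in exons.

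Among genes of the thick filament, edgeR called 1 of 8 tested higher in 4sU exons and none lower, with a median of −0.19. DESeq2 called none. The member called was Myh7, the slow-fibre myosin heavy chain, at 4.4, 3.2 and 3.86 CPM with shZc3h10 and at 1.97 and 1.32 CPM with scramble. It rose by 1.19 (SE 0.36, edgeR adjusted p = 0.0352) on 18 to 61 counts. The call was lost without shZc3h10 library 1 or 3 or scramble library 1 or 2 (edgeR adjusted p = 0.117, 0.0827, 0.0829 and 0.218), and DESeq2 gave 0.0846. Exons of Myh7 overlap those of the antisense gene Mhrt, and whether counting used strand is not given in the sources used here, so their reads cannot be told apart. The embryonic and perinatal myosins Myh3 and Myh8 did not pass, with exons at 17.5 to 26 CPM against 24.4 and 32.5 CPM and at 28.3 to 36.2 CPM against 25.8 and 32.5 CPM. The adult fast myosins Myh2 and Myh4 had at most 9 and 14 exon counts and were not tested in 4sU exons. Myosin heavy chain genes are near-identical in sequence, so reads may be split among them. Myl1, the fast alkali light chain, fell by 0.45 (SE 0.11, edgeR adjusted p = 0.0189) in introns, with 42, 35.3 and 39.3 CPM against 56.4 and 49.6 CPM, a call lost without shZc3h10 library 3 (0.0569) or scramble library 1 (0.243). Its exons, at 16.1, 14.7 and 15.8 CPM against 23.4 and 18.2 CPM, stood at −0.42 (SE 0.18, edgeR adjusted p = 0.16). Mybph exons overlapped, at 7.94, 8.65 and 8.96 CPM against 10.9 and 8.37 CPM. The remaining members of this group did not pass in either part where tested: the fast myosin Myh1 at 0.46 (SE 0.26), the light chain Myl4 at −0.20 (SE 0.40) and the regulatory light chain Mylpf at −0.77 (SE 0.32) in exons. Introns of Myl4 had an edgeR adjusted p of 0.0509, which was 0.0485 with RLE size factors.

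Among genes of calcium release and uptake, 3 of 6 were lower in 4sU exons and none was higher. Ryr1, the calcium release channel of skeletal muscle, had exons at 41.3, 50 and 48.2 CPM with shZc3h10 and at 76.6 and 81.4 CPM with scramble. Casq2, the calsequestrin that buffers calcium in the sarcoplasmic reticulum of heart and developing muscle, had exons at 7.43, 5.55 and 7.86 CPM against 12.9 and 13.7 CPM. Atp2a1, the calcium pump SERCA1, had exons at 43.2, 53.9 and 46.3 CPM against 69.2 and 66.1 CPM. In each of these genes every shZc3h10 library was below every scramble library. The same held over introns, where Ryr1 was at 24.3, 26.8 and 25.3 CPM against 50.4 and 41.8 CPM, Casq2 at 11, 11.6 and 11.2 CPM against 19.2 and 19.8 CPM, and Atp2a1 at 8.08, 9.23 and 7.42 CPM against 13 and 12 CPM. Ryr1 fell by 0.77 (SE 0.15, edgeR adjusted p = 0.00133) in exons and by 0.86 (SE 0.12, edgeR adjusted p = 0.000335) in introns. Casq2 fell by 0.93 (SE 0.21, edgeR adjusted p = 0.00611) in exons and by 0.79 (SE 0.13, edgeR adjusted p = 0.0014) in introns. Atp2a1 fell by 0.50 (SE 0.15, edgeR adjusted p = 0.0336) in exons and by 0.60 (SE 0.17, edgeR adjusted p = 0.0302) in introns. Its calls did not hold without shZc3h10 library 1 or 3 or scramble library 1 or 2, with edgeR adjusted p from 0.103 to 0.208 in exons and from 0.0713 to 0.252 in introns. Atp2a1 exons also overlap those of Rabep2 on the other strand. Exon overlaps with a gene on the other strand are also annotated for Ttn, Xirp2, Des and Ryr1, and for Tnnc2 with Ube2c, among other members. The voltage sensor gene Cacna1s, the fast-fibre calsequestrin Casq1 and triadin, Trdn, were at 0.454 to 3.2 CPM over exons in every 4sU library and did not pass.

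Of the 5 genes of energy supply and other muscle genes, 3 were lower in 4sU exons. Klhl30 and Klhl31 are kelch-like proteins of muscle, and Tmem182 is a muscle membrane protein. Klhl30 exons were at 33.5, 29.3 and 25 CPM with shZc3h10 and at 95.2 and 95.9 CPM with scramble, and its introns at 9.27, 7.14 and 7.8 CPM against 28.6 and 33.2 CPM. Tmem182 exons were at 3.46, 2.73 and 3.72 CPM against 9.08 and 9.4 CPM, and its introns at 7.86, 10.2 and 8.57 CPM against 32 and 31.4 CPM. Klhl31 exons were at 10.8, 12.6 and 11 CPM against 19.8 and 20.9 CPM. In all 3 genes the 2 scramble libraries lay close to each other over exons and above every shZc3h10 library. Klhl30 fell by 1.71 (SE 0.15, edgeR adjusted p = 2.08e-07) in exons and by 1.93 (SE 0.15, edgeR adjusted p = 4.74e-06) in introns, a fold of 3.26 and 3.82. Tmem182 fell by 1.47 (SE 0.25, edgeR adjusted p = 0.000383) and by 1.84 (SE 0.14, edgeR adjusted p = 4.64e-06). Klhl31 fell by 0.83 (SE 0.18, edgeR adjusted p = 0.00418) in exons, while its introns overlapped at 12.3, 11.3 and 14.8 CPM against 14.1 and 19.6 CPM. Ckm, the muscle creatine kinase, at 0.353 to 1.4 CPM, and Pygm, the muscle glycogen phosphorylase, at 2.67 to 6.82 CPM, did not pass in exons.

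In total RNA, grouped by label, the members that passed were all higher in the libraries labelled shZc3h10. In exons, 5 of 43 members were higher and none lower by edgeR, against 3.07% and 3.36% of all 13815 genes tested, 6.43% in either direction. DESeq2 called 9 higher and none lower, and 16 members had an unadjusted edgeR p below 0.05 in either direction. In introns, 8 of 41 tested members were higher and none lower, against 3.08% and 2.11% of all genes, 5.2% in either direction, and DESeq2 called 11 higher and none lower, with 23 members at an unadjusted edgeR p below 0.05 in either direction. The median log2 fold change was 0.22 over the members and −0.10 over all genes in exons, and 0.63 against −0.022 in introns. In exons the labelled groups did not overlap for 15 of 43 members with shZc3h10 above and for 7 with it below. Of all genes, 13.8% and 15.5% lay above and below without overlap. In introns these were 26 and 2 of 41 members, where 13.7% and 9.48% of all genes did so. The label disagreement described above applies to each of these directions. The median standard error of a member was 0.31 in total exons and 0.30 in total introns, against 0.22 and 0.24 in 4sU exons and introns. Without scramble library 2, edgeR called 6 members higher and 2 lower in total exons, Myh7 (0.0181) and Tnnt1 (0.0318). Leaving out scramble library 1, scramble library 3, shZc3h10 library 1 or shZc3h10 library 2 left 2, 2, 2 and 3 members higher in exons, and without scramble library 1, shZc3h10 library 1 or shZc3h10 library 2 there were 5, 5 and 4 higher in introns.

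**Figure D2:**
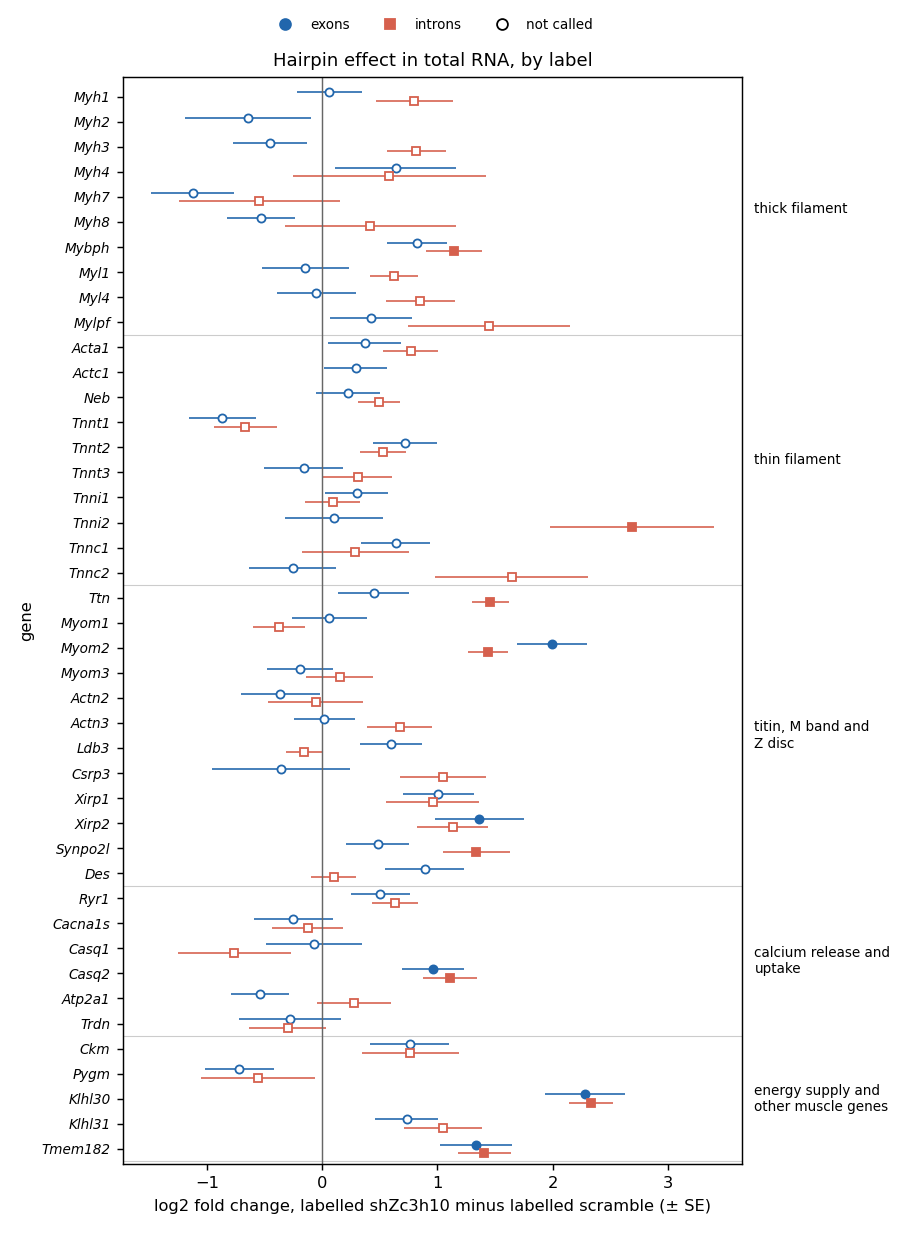
Log2 fold change (labelled shZc3h10 minus labelled scramble, ± SE) of the members in total RNA, exons as circles and introns as squares, filled where edgeR called the gene. All filled points lie to the right, and Klhl30, Myom2, Tmem182 and Casq2 are filled in both exons and introns.

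Klhl30 had the largest exon difference of the members, with 398, 423 and 502 CPM in total RNA labelled shZc3h10 and 89.6, 129 and 54.5 CPM in total RNA labelled scramble. Its introns were at 196, 191 and 237 CPM against 39.9, 48.5 and 36.1 CPM. It was 2.28 (SE 0.35, edgeR adjusted p = 0.00202) higher in exons and 2.33 (SE 0.19, edgeR adjusted p = 0.000115) higher in introns. Myom2 exons were at 274, 313 and 382 CPM against 80.7, 100 and 62.6 CPM, and its introns at 144, 148 and 145 CPM against 50.5, 55.9 and 54.9 CPM. Myom2 was 1.99 (SE 0.30, edgeR adjusted p = 0.00202) higher in exons and 1.44 (SE 0.17, edgeR adjusted p = 0.000424) higher in introns. Both genes stayed called in exons and introns when any 1 of the 6 libraries was left out. They are members of different structures, a kelch-like protein and an M band protein.

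Tmem182 exons were at 13.5, 17.1 and 8.65 CPM in total RNA labelled shZc3h10 and at 6.34, 4.05 and 5.12 CPM in total RNA labelled scramble. Casq2 exons were at 15.9, 19.7 and 12.9 CPM against 9.14, 8.7 and 7.15 CPM, and Xirp2 exons at 1.5, 1.17 and 1.5 CPM against 0.663, 0.474 and 0.468 CPM. The labelled groups did not overlap in any of the 3 genes. Tmem182 was 1.34 (SE 0.31), Casq2 0.96 (SE 0.27) and Xirp2 1.36 (SE 0.39) higher, with edgeR adjusted p of 0.0233, 0.0485 and 0.0494. Each of these exon calls was lost without shZc3h10 library 1 or 2 or scramble library 1 or 3, and that of Xirp2 also without shZc3h10 library 3. Without those libraries the edgeR adjusted p lay between 0.0611 and 0.184. Over introns Tmem182 was at 41.7, 42.3 and 39 CPM against 16.2, 15.5 and 14.7 CPM, and Casq2 at 48.7, 45.3 and 54 CPM against 27.8, 21.2 and 19.6 CPM. In introns, Tmem182 was 1.41 (SE 0.23, edgeR adjusted p = 0.00378) and Casq2 1.11 (SE 0.23, edgeR adjusted p = 0.0139) higher, and the intron call of Casq2 was lost without shZc3h10 library 1 (0.0555) or 2 (0.0531). Introns of Xirp2 stood at 1.13 (SE 0.31, edgeR adjusted p = 0.0513).

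Ttn passed the test in introns of total RNA and not in exons. Its introns were at 1248, 1113 and 1029 CPM in the libraries labelled shZc3h10 and at 387, 399 and 447 CPM in those labelled scramble. Its exons were at 939, 703 and 734 CPM against 526, 532 and 686 CPM, which also do not overlap but lie close. Ttn introns were 1.46 (SE 0.16, edgeR adjusted p = 0.000321) higher, while exons stood at 0.45 (SE 0.31, edgeR adjusted p = 0.367), and the difference between exons and introns was not called by edgeR (−0.88, SE 0.29, adjusted p = 0.155). Synpo2l also passed in introns only, at 20, 19.7 and 18.9 CPM against 7.1, 8.44 and 7.69 CPM, which is 1.34 (SE 0.29, edgeR adjusted p = 0.0175) higher. Mybph, myosin-binding protein H, was at 41.4, 51.3 and 44.6 CPM against 24, 22.1 and 16.1 CPM in introns, 1.14 (SE 0.24, edgeR adjusted p = 0.0149) higher. The Synpo2l call was lost without shZc3h10 library 1 or 2 or scramble library 1 (0.0741, 0.0865 and 0.122), and that of Mybph without shZc3h10 library 2 (0.0964) or scramble library 1 (0.0521). Mybph shares exon sequence with Adora1 on the other strand. Tnni2, the fast troponin I, was at 2.52, 2.38 and 3.46 CPM against 0.582, 0.307 and 0.362 CPM in introns and was called higher, at 2.69 (SE 0.71, edgeR adjusted p = 0.0433) on only 2 to 24 counts, and leaving out any 1 library ended that call (0.0724 to 0.179).

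**Figure D3:**
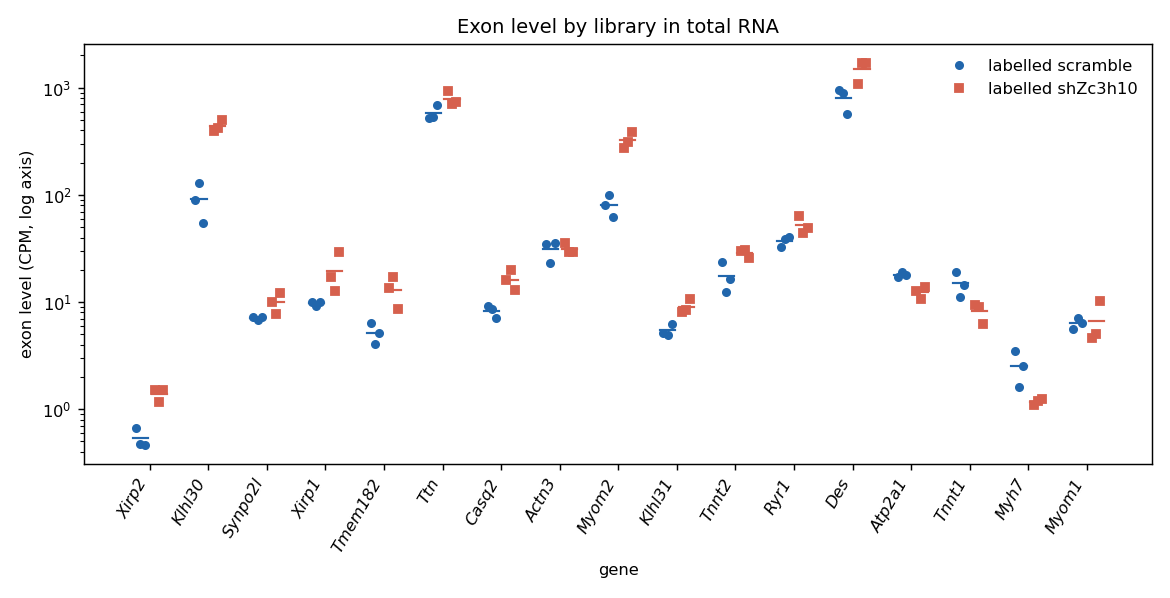
Exon level in CPM (log axis) in each total RNA library of the same 17 members as in the plot of 4sU levels, with a line at the mean: circles for the 3 libraries labelled scramble, squares for the 3 labelled shZc3h10. Klhl30 and Myom2 stand highest above their circles, and Myh7, Tnnt1 and Atp2a1 have their squares below.

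Of the members that fell in 4sU RNA, several had no call in total exons. Synpo2l exons were at 10.1, 7.67 and 12.1 CPM in the libraries labelled shZc3h10 and at 7.27, 6.77 and 7.32 CPM in those labelled scramble. Klhl31 exons were at 8.12, 8.4 and 10.6 CPM against 5.11, 4.97 and 6.23 CPM. Neither pair of groups overlapped, and Klhl31 stood at 0.73 (SE 0.27, edgeR adjusted p = 0.108, DESeq2 0.0428). Des exons were at 1074, 1700 and 1684 CPM in the libraries labelled shZc3h10 and at 943, 894 and 569 CPM in those labelled scramble, 0.89 apart (SE 0.34, edgeR adjusted p = 0.119, DESeq2 0.0177). Xirp1 exons were at 17.2, 12.6 and 29.1 CPM against 9.96, 9.21 and 10 CPM, 1.01 apart (SE 0.31, edgeR adjusted p = 0.0634). Without shZc3h10 library 2 or scramble library 2 the edgeR adjusted p of Xirp1 was 0.041 and 0.0413. Ryr1 exons were at 63.9, 44.2 and 49.3 CPM against 32.6, 38.4 and 40.3 CPM, and Tnnt2 exons at 29.8, 30.4 and 25.9 CPM against 23.6, 12.4 and 16.3 CPM, each without overlap and without a call. Actn3 exons overlapped, at 35.5, 29.6 and 29.5 CPM against 34.6, 23 and 35.7 CPM. Atp2a1 exons, at 12.8, 10.7 and 13.9 CPM against 17.2, 18.9 and 18.1 CPM, were the exception among these, with the libraries labelled shZc3h10 below the others, and did not pass the test (−0.54, SE 0.25). Myh7 exons were at 1.09, 1.19 and 1.25 CPM against 3.5, 1.61 and 2.56 CPM and Tnnt1 exons at 9.45, 8.96 and 6.25 CPM against 19.1, 11.2 and 14.6 CPM. Neither Myh7 (−1.13, SE 0.36, edgeR adjusted p = 0.069) nor Tnnt1 (−0.87, SE 0.29, edgeR adjusted p = 0.0806) passed with all 6 libraries.

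The other members called in 4sU RNA or in total introns had no edgeR call in total exons either. Ldb3 exons were at 156, 155 and 182 CPM in the libraries labelled shZc3h10 and at 110, 123 and 93.5 CPM in those labelled scramble, without overlap. Mybph exons were also apart, at 17.4, 13.4 and 14.8 CPM against 10, 7.84 and 8 CPM (0.82, SE 0.26, edgeR adjusted p = 0.068, DESeq2 0.0149). In 4 others the labelled groups overlapped. Myom1 exons were at 4.65, 5.04 and 10.2 CPM against 5.64, 7.09 and 6.36 CPM, a difference of 0.06 (SE 0.33) that did not pass the test, beside the rise in 4sU RNA. Neb exons were at 96.4, 58 and 82.9 CPM against 56.3, 69.4 and 77.8 CPM. Myl1 exons were at 19.5, 23 and 10.8 CPM against 26.9, 8.95 and 23.1 CPM, and Tnni2 exons at 2.59, 2.9 and 1.45 CPM against 2.86, 0.886 and 2.67 CPM. The spread within each labelled group was larger than the difference between them in these last 2 genes.

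Over the 4 hairpin tests, edgeR called 22 members at least once and 21 in none. Of all 16272 genes tested in at least 1 of them, 19.4% were called at least once. It called Klhl30, Myom2, Tmem182 and Casq2 in all 4, out of 37 members tested in all 4, against 1.65% of 11306 such genes. All 4 of these were lower in 4sU RNA and higher in total RNA labelled shZc3h10. With the replicate number added to the fit as a block, Casq2 lost its calls in total exons and introns (edgeR adjusted p = 0.128 and 0.0731). Tmem182 then lost its call in total exons (0.119). The 21 without a call include the adult fast myosin heavy chains Myh1, Myh2 and Myh4, the last 2 not tested in every part, and also both striated actin genes, Tnnc1 and Tnnc2, and Cacna1s, Casq1 and Trdn.

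How far the hairpin effect in exons differed from 4sU RNA to total RNA, as labelled, was tested directly over all 11 libraries. It passed for 15 of 43 members, 13 of them with the lower value in 4sU RNA, against 8.62% of all 15008 genes tested, and 2 with the higher, against 5.54%. Among the differences as labelled were those of Klhl30 at −4.13 (SE 0.39, edgeR adjusted p = 2.42e-06), Xirp2 at −3.73 (SE 0.60, edgeR adjusted p = 0.00048) and Myom2 at −3.06 (SE 0.32, edgeR adjusted p = 6.72e-06). Myh7 and Tnnt1 stood on the other side, at 2.17 (SE 0.50) and 1.45 (SE 0.38). The median was −0.53 over the members.

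These sizes and directions rest on the labels of total RNA. With the hairpins of total RNA exchanged, as the names of the deposited files have them, edgeR called 0 of 43 members and 0 of 15008 genes, against 2126 as labelled. At an unadjusted p below 0.05 there were 8 members and 1703 genes, 11.3% of those tested, and DESeq2 called 0 members and 11 genes. The difference would then be 0.65 (SE 0.39) for Klhl30, −0.77 (SE 0.60) for Xirp2, 1.15 (SE 0.32) for Myom2 and 0.12 for Casq2, none of them called by edgeR (adjusted p = 0.525, 0.629, 0.363 and 0.923). Tmem182, at −0.037, and Klhl31, at −0.024, would lie near 0, and Myom1 would have the value farthest from 0 of all members, at 1.54 (SE 0.46, edgeR adjusted p = 0.363). Such an exchange was tried after the values were seen, and which reading is right was not tested.

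Levels of the members in 4sU RNA against total RNA were compared over both hairpin labels, a contrast that does not depend on which hairpin a total RNA library carried. Of 43 members, 24 were lower and 6 higher in 4sU RNA, against 35.9% and 35.1% of the 15008 genes tested, 71% in either direction, and the median was −0.84 against −0.013 over all genes. All values are relative to the other RNA of a library and not amounts per cell. The contrast scaled all 11 libraries together, whereas CPM values were scaled within each kind of RNA, so the 2 can differ. Neb, for example, stood at a mean of 3.47 CPM per kilobase of exons in 4sU RNA and 3.06 in total RNA. Myh1 stood at 0.944 and 0.89. In the contrast both were called lower in 4sU RNA, at −0.58 and −0.75. The counts lower and higher rest on the joint scaling. By group, 8 of 10 thin filament genes, 5 of 10 thick filament genes, 2 of 6 calcium genes and 4 of 5 genes of energy supply and other muscle genes were lower. In titin, the M band and the Z disc 5 of 12 were lower and 4 higher.

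**Figure D4:**
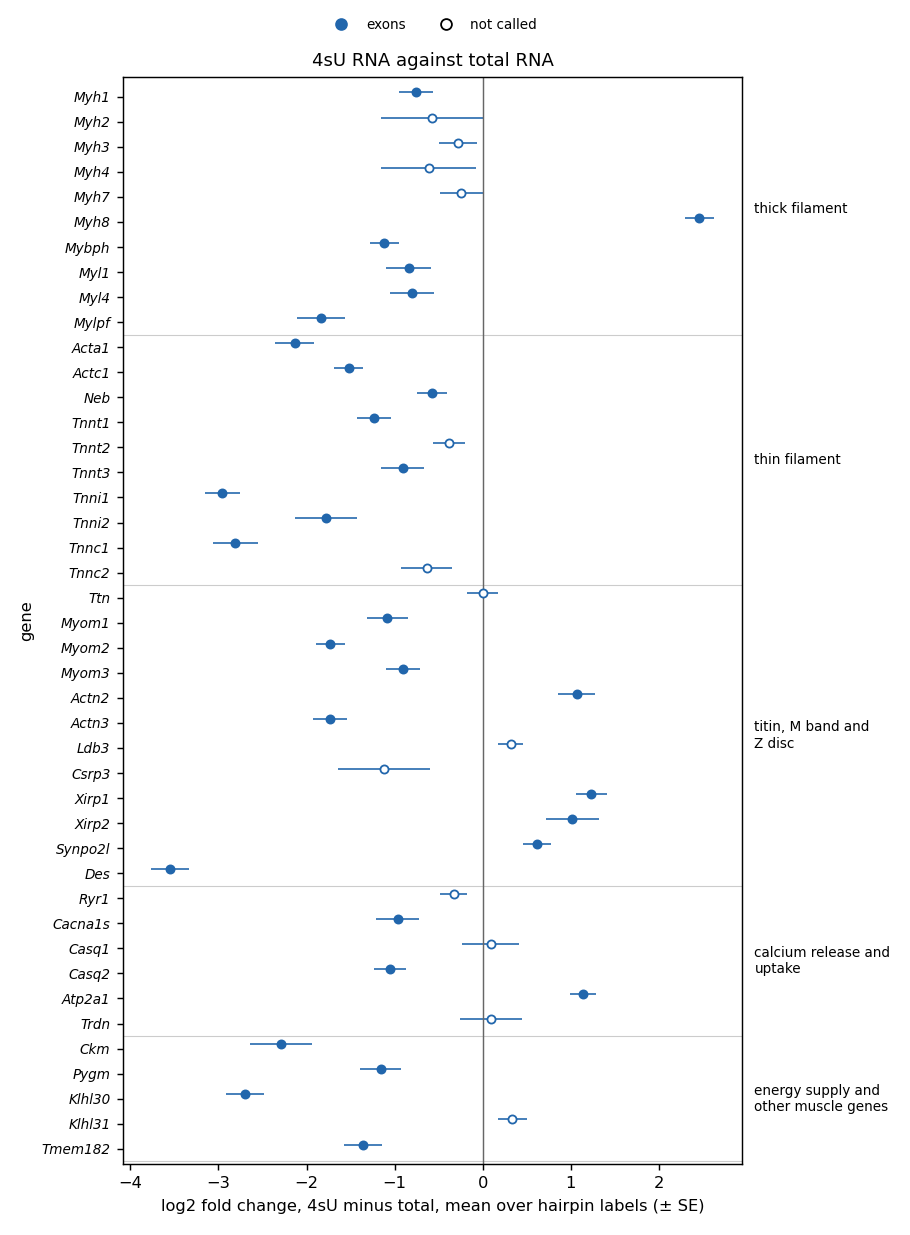
Log2 difference in exon level between 4sU RNA and total RNA (mean over both hairpin labels, ± SE) of the members, filled where edgeR called the gene. All 10 thin filament genes lie to the left of 0, Des and Tnni1 lie farthest left, and Myh8 lies farthest right.

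Des had the largest difference, with 106 to 208 CPM in 4sU exons and 569 to 1700 CPM in total exons. It was 3.55 lower in 4sU RNA on the log2 scale (−3.55, SE 0.22, edgeR adjusted p = 5.61e-10). CPM here and below were scaled within each kind of RNA, so their ratios do not equal the log2 differences of the contrast. Tnni1, the slow troponin I, was at 8.3, 10.2 and 10.4 CPM with shZc3h10 and 8.62 and 10.3 CPM with scramble in 4sU exons. In total exons it was at 46.1, 57.2 and 39.3 CPM in libraries labelled shZc3h10 and at 34.8, 49.5 and 31.8 CPM in those labelled scramble. Tnnc1, the calcium-binding troponin C of slow and cardiac muscle, was at 3.03, 6.39, 3.65, 6.3 and 4.55 CPM in the same 4sU libraries and at 27, 31, 15.5, 14.9, 19.5 and 12.8 CPM in the same total RNA libraries. These troponin genes did not pass any of the hairpin tests, and their levels in 4sU and total RNA did not overlap. The differences were −2.95 (SE 0.20, edgeR adjusted p = 1.01e-09) for Tnni1, −2.81 (SE 0.26, edgeR adjusted p = 3.32e-08) for Tnnc1, −2.70 (SE 0.21, edgeR adjusted p = 6.11e-09) for Klhl30 and −2.29 (SE 0.35, edgeR adjusted p = 1.54e-05) for Ckm. Ckm was at 0.433, 1.03, 0.689, 0.353 and 1.4 CPM in 4sU exons, on 6 to 19 counts per library, and at 2.66, 3.88, 1.94, 1.67, 1.52 and 1.82 CPM in total exons.

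Among the 6 members higher in 4sU RNA, Myh8 stood out. Its exons were at 36.2, 35.5 and 28.3 CPM with shZc3h10 and at 25.8 and 32.5 CPM with scramble in 4sU RNA, on 377 to 511 counts. In total RNA they were at 2.63, 2.28 and 3.31 CPM in libraries labelled shZc3h10 and at 4, 3.64 and 4.23 CPM in those labelled scramble. The difference was 2.46 (SE 0.17, edgeR adjusted p = 1.19e-09). Over introns, however, Myh8 had only 9 to 18 counts per 4sU library, 0.264 to 0.632 CPM. Atp2a1 (1.14, SE 0.14), Xirp1 (1.23, SE 0.18), Actn2 (1.07, SE 0.21), Xirp2 (1.02, SE 0.30) and Synpo2l (0.62, SE 0.16) were the others. Actn2, another alpha-actinin, was at 6.5, 5.27, 4.62, 4.09 and 4.04 CPM in the 4sU libraries and at 1.18, 0.986, 1.3, 1.53, 1.61 and 1.31 CPM in total exons. Without shZc3h10 library 3 of 4sU RNA, the value of Xirp2 was 0.59 (edgeR adjusted p = 0.0659). Of these, Xirp1, Xirp2 and Synpo2l were also among the 4 members with the largest falls in 4sU exons.

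Levels between genes can be compared only per length, here as mean CPM per kilobase of merged exons (GENCODE M21, build GRCm38, used for lengths only). These were scaled within each kind of RNA, so values of 4sU RNA and total RNA are not on the same scale. In 4sU RNA the highest members were Actc1 at 79.3, Des at 52 and Ldb3 at 48.3 CPM per kilobase, followed by Tnnt2 at 23 and Acta1 at 19.2. In total RNA they were Des at 378, Actc1 at 129, Klhl30 at 86, Acta1 at 50 and Myom2 at 39.8 CPM per kilobase. The 4sU ranges over libraries of Des, 35.1 to 68.5, and Ldb3, 39 to 55.9, overlap, so their order is not settled. Ttn, the member with the most exon counts in 4sU RNA, was at 10.2 CPM per kilobase there, since its merged exons span 114 kilobases. The adult fast myosins Myh2 and Myh4 were at the other end, at 0.046 and 0.0628 CPM per kilobase in 4sU RNA. Fast-fibre genes were not all this low, with Myl1 at 12, Actn3 at 5.56 and Casq1 at 0.75 CPM per kilobase there.

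The change of exons was also set against the change of introns within each library. In 4sU RNA edgeR called 0 of 43 members, against 0.15% of 14678 genes (0.0954% higher, 0.0545% lower), with 3 members at an unadjusted p below 0.05 and none called by DESeq2. In total RNA edgeR called 0 of 43, against 0.0553% of 16287 genes (0.043% higher, 0.0123% lower), with 11 at an unadjusted p below 0.05. There DESeq2 called Ttn lower (−0.87, adjusted p = 0.0174) and Ldb3 higher (0.89, adjusted p = 0.0456). Without scramble library 2 of total RNA, edgeR called Des and Ldb3 higher and Myh3 and Tnni2 lower, with adjusted p from 0.0218 to 0.0434. The lowest edgeR adjusted p over the members with all libraries was 0.24 in 4sU RNA and 0.103 in total RNA.

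Related muscle genes outside the list were counted the same way. Among all genes tested, 4.65% were lower and 5.7% higher in 4sU exons, and 3.36% and 3.07% in total exons as labelled. In introns these were 6.59% and 8.96% in 4sU RNA, and 2.11% and 3.08% in total RNA as labelled. Of 34 other sarcomere genes tested in 4sU exons, 7 were lower and 1 higher, with Pdlim3 at −0.96 (SE 0.15), Lmod3 at −0.90 (SE 0.18) and the myosin chaperone partner Smyd1 at −0.82 (SE 0.18) lower and Igfn1 at 1.59 (SE 0.41) higher. These are 20.6% lower and 2.94% higher. In 4sU introns, 5 of 37 such genes were lower and 5 higher (13.5% each). In total introns as labelled, 1 of 37 was lower (2.7%) and 4 were higher (10.8%). In total exons 40 of these genes were tested. Pdlim3 (1.59, SE 0.29), Lmod3 (1.75, SE 0.34) and Nrap (0.98, SE 0.27) were the 3 higher in total exons labelled shZc3h10 (7.5%), and Mybpc1 (−2.37, SE 0.40) the 1 lower (2.5%), a share near that of all genes. Of 31 other excitation-contraction genes, 6 were lower (19.4%) and 3 higher (9.68%) in 4sU exons. Lower ones included the acetylcholine receptor subunits Chrnd (−0.91, SE 0.14) and Chrnb1 (−0.89, SE 0.14) and the calcium channel subunit Cacnb1 (−1.04, SE 0.20). Higher ones were the junctophilin Jph2 (0.70, SE 0.16), the ryanodine receptor Ryr3 (0.72, SE 0.17) and the inositol trisphosphate receptor Itpr1 (0.48, SE 0.15). Over introns, 5 of 33 such genes were lower (15.2%) and 4 higher (12.1%) in 4sU RNA. Total introns as labelled had 2 lower and 2 higher (6.06% each). In total exons labelled shZc3h10, Chrnd (1.92, SE 0.30), Chrnb1 (1.82, SE 0.36) and Musk (1.37, SE 0.38), the kinase of the neuromuscular synapse, were higher, 9.38% of 32 tested, and none was lower.

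Of 19 dystrophin and costamere genes tested in 4sU exons, 3 were lower and 3 higher, 15.8% each way beside the 4.65% and 5.7% of all genes, with the laminin receptor subunit Itga7 at −1.11 (SE 0.13), Parvb at −0.66 (SE 0.15) and dystroglycan, Dag1, at −0.48 (SE 0.14), and with Sgcd at 0.80 (SE 0.22), Sntb2 at 0.49 (SE 0.15) and Sspn at 0.49 (SE 0.16). In total exons Itga7 was 1.16 (SE 0.32) higher in the libraries labelled shZc3h10, the 1 call among 19 genes (5.26%, against 3.07% of all genes). Over introns, 3 of 20 such genes were lower (15%) and 5 higher (25%) in 4sU RNA. Total introns as labelled had 2 lower (10%) and 1 higher (5%). Of 18 myogenic regulators and fusion genes, edgeR called none in 4sU exons, with 4 at an unadjusted p below 0.05. In 4sU introns it called 1 of 17 higher (5.88%) and 2 lower (11.8%), beside 8.96% and 6.59% of all genes. There 8 had an unadjusted p below 0.05. Myocd was 2.27 (SE 0.44) higher in total exons labelled shZc3h10, the 1 call among 18 genes (5.56%). In total introns 1 of 17 was called higher (5.88%). Of 10 glycogen and phosphocreatine genes, Ckb was lower (−0.71, SE 0.21) and Pfkm higher (0.49, SE 0.15) in 4sU exons, and Phkb was lower (−1.15, SE 0.28) in total exons. Each is 1 gene of 10 (10%), beside 4.65%, 5.7% and 3.36% of all genes. Over introns, 2 of 13 were lower and 2 higher (15.4% each) in 4sU RNA, and 0 were called in total RNA. The 12 smooth and non-muscle contractile genes had 5 higher (41.7%, against 5.7% of all genes) and none lower in 4sU exons, with a median of 0.66. Those with the smallest p were Actg2 (1.46, SE 0.14), Cnn1 (1.74, SE 0.20) and Tagln (1.17, SE 0.15). Cnn1 (−1.20, SE 0.31) and Tagln (−1.32, SE 0.35) were lower in total exons labelled shZc3h10. Over introns, 5 of 11 tested were higher (45.5%) and 0 lower in 4sU RNA. Total introns labelled shZc3h10 had 3 lower (27.3%) and 0 higher.

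Markers of cell types were summed in the same libraries. Myod1, at 84.7 to 104 CPM, and Myf5, at 59.4 to 75.5 CPM in 4sU exons, were present in every library, as the label of myoblasts implies. The 7 myoblast markers, which include Des, summed to 1460 to 1550 CPM in 4sU exons with shZc3h10 and 2070 to 2080 CPM with scramble, and 3 of 7 were lower, Itga7, Cdh15 and Des. Of 6 markers of differentiated myotubes, 3 of which are members here, 5 were tested and edgeR called none in any of the 4 hairpin tests. Their sums were 122 to 146 CPM against 143 to 187 CPM in 4sU exons. Unadjusted, 2 of them had p below 0.05 in 4sU exons, 0 in 4sU introns, 1 in total exons and 3 in total introns, and DESeq2 called Acta1 (0.0384) and Myh3 (0.0388) higher in total introns labelled shZc3h10. Adipocyte markers summed to 400 to 465 CPM against 137 to 151 CPM, most of it Lpl at 130 to 455 CPM, while Adipoq was at most 0.376 CPM and Plin1 at most 0.0941 CPM in 4sU exons. Of 2 tested there, 1 was called higher, Lpl. In 4sU introns these markers summed to 182 to 223 CPM against 136 to 149 CPM, and 2 of 3 tested were called higher, Fabp4 and Lpl. The endothelial list, with sums of 2.02 to 3.39 CPM against 1.31 to 2.28 CPM, and the macrophage list, at 24.9 to 29.4 CPM against 26.4 to 30 CPM, had no edgeR call in 4sU exons and 1 gene each at an unadjusted p below 0.05. Osteoblast markers summed to 153 to 199 CPM against 124 to 172 CPM in 4sU exons. In 4sU introns they summed to 825 to 891 CPM against 662 to 684 CPM, with Runx2 called higher, 1 of 3 tested. The endothelial sums there were 4.88 to 7.14 CPM against 2.27 to 3.64 CPM, with 1 of 4 tested called higher. Macrophage sums in introns were 4.93 to 7.25 CPM against 3.73 to 4.8 CPM, with no call and 2 genes at an unadjusted p below 0.05. Of all genes, 8.96% were higher in 4sU introns.

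In total RNA, as labelled, the myoblast and adipocyte sums lay on the other side from 4sU RNA, as did the osteoblast sums in introns and the members called in both. The myoblast markers summed to 3550 to 4280 CPM in total exons labelled shZc3h10 and to 1920 to 2830 CPM in those labelled scramble, and to 1910 to 2320 CPM against 1430 to 1720 CPM in introns. Itga7 was called higher in exons and introns, and Cdh15 in introns (1.18, SE 0.17). The myotube markers summed to 233 to 252 CPM against 169 to 218 CPM in exons and to 98.6 to 120 CPM against 64.4 to 70.3 CPM in introns, without overlap. The adipocyte markers summed to 32.2 to 35.1 CPM against 105 to 123 CPM in exons and to 107 to 119 CPM against 152 to 214 CPM in introns. Lpl was called lower in total exons (−1.89, SE 0.25) and introns (−1.57, SE 0.24), while Adipoq was at most 0.0949 CPM and Plin1 at most 0.316 CPM in exons. The osteoblast sums overlapped in exons, at 15.2 to 23.8 CPM against 21.4 to 43.3 CPM, with Alpl called lower (−2.06, SE 0.54), and lay at 369 to 442 CPM against 453 to 630 CPM in introns. The macrophage sums, 2.81 to 5.39 CPM against 3.1 to 4.71 CPM, and the endothelial sums, 0.986 to 1.86 CPM against 0.667 to 2.28 CPM, overlapped in exons. Whether the differences in these marker sums have a part in the changes of the sarcomere genes was not tested.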

How the data were processed

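RNA of C2C12 cells was measured in 11 libraries, each deposited as 2 tables of raw counts per gene, over exons and over introns. TopHat2 2.0.8 and the mouse build mm9 are named in the submitters' processing notes. How the authors counted reads, with which annotation and strand setting, is not given in the sources used here. The deposited counts are whole numbers with an Entrez identifier and a symbol per the file headers. Rows without a symbol, 85 in exon files and 63 in intron files with 0.0291% to 0.307% of a library's counts, were left out of library sizes and tests. Total counts per library were 10369374 to 19690198 (exons) and 26272902 to 41597832 (introns) in 4sU RNA, and 31058706 to 54075687 and 6007028 to 12213901 in total RNA. Between replicates of 1 group, chi-square over degrees of freedom was 10.1 to 459, so they differed beyond sampling noise.

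Groups followed the titles and genotype labels. The test was the quasi-likelihood test of edgeR 4.0.16 (R 4.3.3) with TMM scaling, after its filter on low counts (about 10 counts in as many libraries as the smaller group holds, and 15 in total). P-values were Benjamini-Hochberg adjusted over all genes tested and called below 0.05, with the standard error (SE) derived from the F statistic. The 4 hairpin tests used the libraries of 1 kind of RNA, the contrasts of 4sU against total RNA all 11 with 4 group means, and exons against introns both parts with the library as a block. Scaling factors were computed over the libraries of each test. CPM values were scaled within each kind of RNA, apart for exons and introns. Log2 fold changes are shZc3h10 minus scramble. Alternatives were DESeq2 1.42.0, DESeq2-type size factors in edgeR (RLE), no filter, a replicate block, each library left out and, added after seeing the data, the hairpins of total RNA exchanged in the difference between both kinds of RNA. Where that left a group with 1 library, its spread was taken from the other libraries. Scripts were tested on simulated data. The text names all members, giving every library for those called in a hairpin test or among the 5 largest changes each way of 4sU against total RNA, and up to 3 called genes each way of each pathway list. The members and gene lists were chosen with earlier results of these data known, so their counts are descriptions.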

Additional observations from a re-analysis of the deposited data

Results flagged for a closer look

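The hairpin effect, as labelled, differed between 4sU RNA and total RNA in exons of 15 members by edgeR's test of the difference. The log2 difference, 4sU effect minus total effect, was −4.13 for Klhl30, −3.73 for Xirp2, −3.06 for Myom2, −2.98 for Tmem182, −2.67 for Xirp1, −2.27 for Synpo2l and −2.05 for Casq2. It was −1.71 for both Des and Klhl31, −1.67 for Ttn, −1.66 for Tnnt2, −1.41 for Ryr1 and −1.16 for Mybph. It was positive for Tnnt1, at 1.45, and for Myh7, at 2.17. The call of Myh7 was lost without 4sU scramble library 2 (edgeR adjusted p = 0.0689), that of Tnnt1 without 4sU scramble library 1 (0.0592) or 2 (0.127), and that of Tnnt2 without 4sU scramble library 1 (0.0595). That of Mybph was lost without any 1 of the 5 4sU libraries, total shZc3h10 library 1 or total scramble library 3 (0.0502 to 0.221). For the other 11 genes the call held with any 1 library left out. These differences depend on the labels of total RNA, where the file names give the other hairpin. With the hairpins of total RNA exchanged, edgeR called none of the 15 and no other gene (8 members and 1703 of 15008 genes had an unadjusted p below 0.05, and DESeq2 called 0 members and 11 genes). The values would then be 0.65 for Klhl30, −0.77 for Xirp2, 1.15 for Myom2, −0.037 for Tmem182, −0.46 for Xirp1, −1.09 for Synpo2l and 0.12 for Casq2. For Des, Klhl31, Ttn, Tnnt2, Ryr1 and Mybph they would be 0.31, −0.024, −0.55, 0.035, −0.19 and 0.72, and for Tnnt1 and Myh7 −0.015 and 0.16. The groups hold 2 or 3 libraries, too few to look for single libraries that stand apart in a member.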

How the results depend on the processing

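Of 3610 values of members recomputed under the alternatives, 3452 kept their side of the threshold and, where called, their direction, 96 lost the call, 55 gained one and 7 turned their sign. All 7 came from exchanging the hairpins of total RNA in the difference between both kinds of RNA, an alternative chosen after seeing the data. Exchanged, that difference was 0.12 for Casq2, 0.31 for Des, 1.15 for Myom2, −0.015 for Tnnt1, 0.035 for Tnnt2, 0.72 for Mybph and 0.65 for Klhl30, and edgeR called 0 genes, with 0 members higher and 0 lower. In 4sU exons, members called higher numbered 1 under DESeq2, 1 with the replicate block and 0 to 2 with a library left out. Members lower numbered 12 with the block and 10 to 15 with a library left out. Among those lower, the block ended the calls of Des (edgeR adjusted p = 0.125) and Atp2a1 (0.212). All genes called in 4sU exons were 866 with the block and 722 to 1728 with a library left out, against 1407. In 4sU introns, members higher were 1 under RLE, 1 without the filter, 1 with the block and 1 to 2 with a library left out, and with a library left out members lower were 10 to 15 and all genes 935 to 2583, against 15 and 2103. RLE and the missing filter each gave 16 members lower. In total exons, DESeq2 called 1890 genes and 9 members higher, the missing filter gave 1589 genes and 1 member lower, and the block gave 101 genes and 2 members higher, against 888 and 5. Leaving out a library gave 161 to 2585 genes, 2 to 6 members higher and 0 to 2 lower. In total introns, DESeq2 called 1167 genes, the block 224 genes and 4 members higher, and leaving out a library 230 to 1050 genes and 4 to 9 members higher, against 720 and 8. For the difference between both kinds of RNA, the block gave 1695 genes, 2 members higher and 13 lower. Leaving out a library gave 1030 to 3243 genes, 0 to 3 members higher and 11 to 17 lower, against 2126, 2 and 13. For 4sU against total RNA it gave 9620 to 10688 genes, 5 to 8 members higher and 23 to 27 lower. For exons against introns, 4sU RNA had 91 genes under DESeq2, 139 without the filter and 11 to 87 with a library left out, against 22. Total RNA had 316 under DESeq2, with 1 member higher and 1 lower, 297 without the filter and 1 to 950 with a library left out, with 0 to 2 members higher and 0 to 2 lower, against 9. The cause of these shifts was not tested.

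The replicate numbers were not taken as pairs. The contrasts over both kinds of RNA therefore treated 4sU and total RNA libraries as independent, although both kinds came from the same harvests. Deviations of same-numbered shZc3h10 and scramble libraries correlated at 0.237, −0.211 and −0.22 in total exons, −0.091, −0.136 and −0.494 in total introns, −0.122 and −0.168 in 4sU exons, and 0.042 and 0.262 in 4sU introns. Between differently numbered libraries they lay between −0.331 and 0.366 in total exons and between −0.51 and 0.519 in total introns. In 4sU RNA the 2 scramble libraries deviate from their mean in opposite directions, so these correlations come in pairs of opposite sign. The labels do not say that a number marks a harvest. Between same-numbered 4sU and total libraries of 1 hairpin label the correlation was −0.044 to 0.328 in exons and −0.276 to 0.424 in introns, so not every pair deviated together. Low counts limit Xirp2, Myh2, Myh4, Csrp3, Tnni2, Ckm and Myh7, and 4sU comparisons rest on 2 scramble libraries.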
